A study of Mus musculus with 42 samples.

Results

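Tdpoz1, Tdpoz2, Tdpoz3, Tdpoz4 and Tdpoz5 are neighbouring mouse genes, and their rows in a table of RNA levels in 2- and 4-cell embryos are described here. They were taken by name, as 5 of the 15737 genes listed once in the rows used here, and no level enters that rule. RNA was measured in 18 samples in 9 groups of 2 samples, all of them embryos of ICR mice. The groups were untreated early 2-cell embryos collected 34 h after hCG, the hormone injection that triggers ovulation, late 2-cell embryos at 48 h and 4-cell embryos at 58 h. Late 2-cell embryos were controls, or were cultured with 0.01 µM FK866, with 0.01 µM FK866 and 10 µM NMN, or with 10 nM TSA. Another late 2-cell group was labelled as treated with Sirt1. 4-cell embryos were controls, cultured with 0.01 µM FK866, or cultured with 0.01 µM FK866 and 10 µM NMN.

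FK866 blocks NAMPT, which turns nicotinamide into NMN, the precursor of NAD, in the salvage pathway. TSA (trichostatin A) inhibits histone deacetylases. The methods of the study state that FK866 and TSA were dissolved in DMSO and that DMSO served as the negative control. Per the methods of the study, the Sirt1 group was a knockdown: zygotes were injected with siRNA against Sirt1, Trim21 mRNA and an antibody against SIRT1. Injected control embryos are not a group of their own in the labels, so the group is set against late 2-cell controls. Each library was a pool of whole embryos, so fewer transcripts per embryo and a smaller share of an embryo's RNA cannot be told apart.

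TD-POZ proteins carry a TRAF (MATH) domain and a BTB/POZ domain, the same pair of domains as SPOP. SPOP is an adaptor of the CUL3 ubiquitin ligase: its TRAF domain holds the substrate and its BTB domain binds CUL3. Tdpoz genes are known as genes transcribed in oocytes and early cleavage embryos, and the 2-cell stage is when the mouse embryo begins to transcribe its own genome in earnest. The individual substrates of the TDPOZ proteins are not given in the sources used here.

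The deposited values are FPKM, which is reads scaled by exon length and by the reads of the library, with 1 column per group. Values multiplied by exon length fell on whole reads, and these showed that 7 of the 9 columns are sums of 2 libraries, which were separated and are called A and B, A being the deeper. A lone library was seen in each of 2 columns, those headed FK866 and FK866+NMN at the 4-cell stage. The 16 libraries held from 3169677 to 10003481 reads. Markers of oocytes and cleavage embryos were at very different levels between columns. All 7 with a row reached 1 FPKM in at least 1 column, but Oog3, an oocyte gene, ran from 12.5 to 3505 FPKM and Ooep, of the maternal complex of the oocyte, from 0 to 719.9, both lowest in the column headed late 2-cell TSA. Dppa5a was at 1814 to 2129 FPKM in the columns headed late 2-cell TSA, late 2-cell Sirt1 and 4-cell control and at 85.3 to 479.5 in the other 6. Of the granulosa and cumulus cell markers 1 of 5 reached 1 FPKM, Cyp19a1, at 8.12 FPKM in the column headed 4-cell FK866 and 2.91 in the column headed 4-cell FK866+NMN, and their sums ranged from 0 to 8.39 FPKM.

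The headers of 5 columns and the supplementary tables of the study name different groups. For 84 genes compared at the 4-cell stage, the control, FK866 and FK866+NMN values equalled, in all 84, the columns headed late 2-cell TSA, late 2-cell Sirt1 and 4-cell control. The directions listed for TSA matched the column headed 4-cell FK866 in 1203 of 1203 genes, and those for Sirt1 the column headed 4-cell FK866+NMN in 773 of 821. Sirt1 itself was at 52.7 FPKM in the column headed Sirt1, at 11.3 in the column headed 4-cell FK866+NMN, at 7.61 in the column headed 4-cell FK866 and at 76.4 in late 2-cell controls. Results that use these 5 columns are therefore given by header and then by the tables, and a level is always named by its column's header. The columns headed late 2-cell control, FK866 and FK866+NMN are the same under both readings, with 117, 118 and 117 of 118 values equal. The tables compared hold no early 2-cell group. The header of that column was therefore not checked, and it is used as it stands in both readings.

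The 5 genes lie within 309773 bases of chromosome 3 (build GRCm38, the same assembly as mm10; GENCODE M21). From the lowest coordinate upwards they are Tdpoz2 (chr3:93651542-93652686, minus strand), Tdpoz1 (chr3:93669333-93676310, minus strand), Tdpoz4 (chr3:93796398-93797510, plus strand), Tdpoz3 (chr3:93826020-93827117, plus strand) and Tdpoz5 (chr3:93960292-93961314, minus strand). Tdpoz1 has 3 distinct exon intervals over its annotated transcripts, which together cover 2353 bases, while each of the other 4 is annotated as 1 exon of 1023 to 1145 bases. The RefSeq transcript of Tdpoz1 has 2 exons with 2302 bases in all. The annotated Tdpoz3, Tdpoz4 and Tdpoz5 begin at the first base of the start codon.

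The first 90 coding bases are shown because they let the copies be told apart by eye, and because the size of these differences decides which reads can be given to which gene. They were read from the genome, GRCm38.p6, at chr3:93671386-93671475 (minus) for Tdpoz1, chr3:93652574-93652663 (minus) for Tdpoz2, chr3:93826020-93826109 (plus) for Tdpoz3, chr3:93796398-93796487 (plus) for Tdpoz4 and chr3:93961225-93961314 (minus) for Tdpoz5. Capitals mark bases that differ from Tdpoz5 at the same position.
Tdpoz1: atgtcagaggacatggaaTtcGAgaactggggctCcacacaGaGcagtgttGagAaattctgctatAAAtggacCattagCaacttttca
Tdpoz2: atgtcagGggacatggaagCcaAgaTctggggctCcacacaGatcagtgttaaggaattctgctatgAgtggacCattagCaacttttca
Tdpoz3: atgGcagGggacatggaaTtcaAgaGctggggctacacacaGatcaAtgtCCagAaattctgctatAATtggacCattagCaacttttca
Tdpoz4: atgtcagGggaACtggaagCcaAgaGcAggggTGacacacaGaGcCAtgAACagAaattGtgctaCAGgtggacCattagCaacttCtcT
Tdpoz5: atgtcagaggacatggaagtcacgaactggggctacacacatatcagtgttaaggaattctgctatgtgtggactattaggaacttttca

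Tdpoz2 differed from Tdpoz5 at 9 of these 90 bases, Tdpoz1 at 13, Tdpoz3 at 15 and Tdpoz4 at 25. Over whole coding regions (1023 to 1113 bases) identity among the 5 genes ran from 72.1% for Tdpoz4 and Tdpoz5 to 88.1% for Tdpoz1 and Tdpoz3. Closer copies lie outside the set. The coding region of Tdpoz5 was identical to that of Tdpoz7 (chr3:94071622-94072644, minus strand) over all 1023 bases. Tdpoz1 and Tdpoz9 (chr3:94047981-94054885, minus strand) were 98.5% identical with 17 differences, and Tdpoz4 and Tdpoz8 were 94.8% identical with 58.

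These copies limit what a level of each gene means. Of the 100-base stretches of its exons, 100% recurred elsewhere in the genome for Tdpoz5, 46.7% for Tdpoz3, 22.1% for Tdpoz2, 21.2% for Tdpoz1 and 11.6% for Tdpoz4. Tdpoz5 and Tdpoz7 shared their reads almost evenly, with 6778 and 6251 reads over the 16 libraries, and the Tdpoz5 share ran from 45.7% to 56.6% of the pair. The 95% Wilson interval of that share held 50% in 13 of 16 libraries. Reads of these genes cannot be told apart, and every Tdpoz5 level below is that of the Tdpoz5 row of a pair that cannot be divided. For Tdpoz1 and Tdpoz9 the reads were unequal, 3519 against 25048, with a Tdpoz1 share of 4.68% to 37.0% in the 15 libraries with reads. Tdpoz4 took 14.3% to 97.1% of the reads of Tdpoz4 and Tdpoz8 in the 15 libraries with reads, so the balance of this pair differed between libraries.

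**Figure D1:**
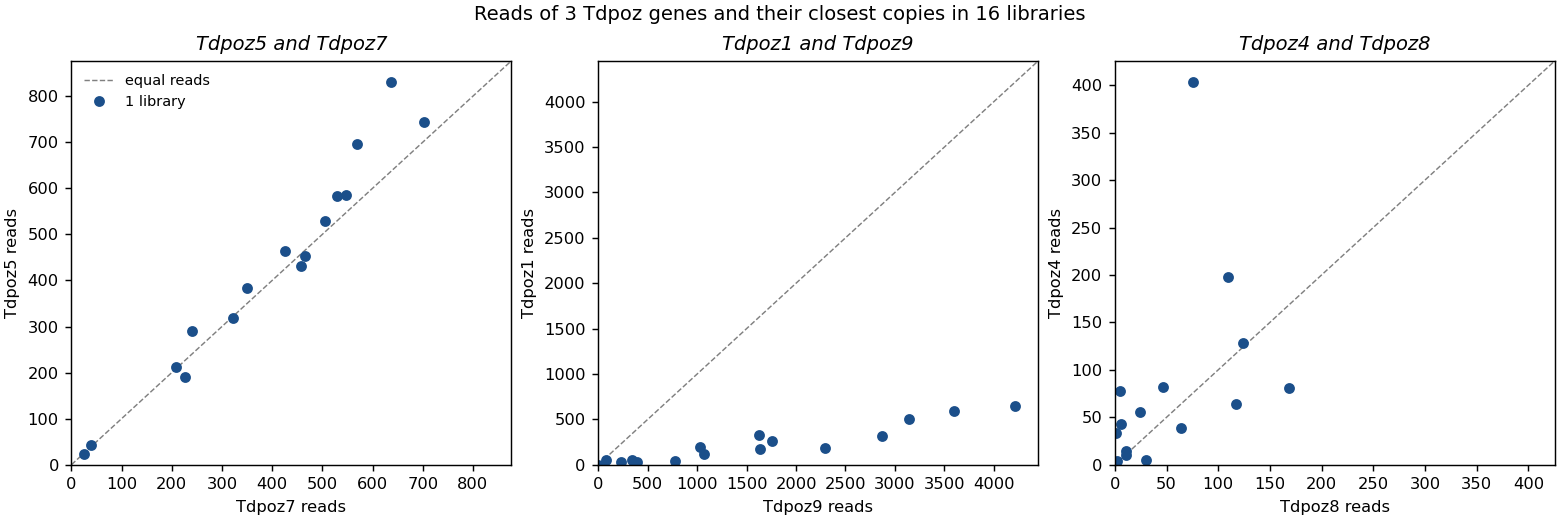
Reads given to Tdpoz5, Tdpoz1 and Tdpoz4 (vertical axes) against reads given to their closest copies Tdpoz7, Tdpoz9 and Tdpoz8 (horizontal axes); each point is 1 of the 16 libraries and the dashed line marks equal reads. Tdpoz5 and Tdpoz7 lie along the line, Tdpoz1 lies below it in every library with reads, and Tdpoz4 lies on either side.

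A promoter sequence from RefSeq (GRCm38.p6 table) was matched for Tdpoz1, Tdpoz4 and Tdpoz5, and not for Tdpoz2 and Tdpoz3. That of Tdpoz1, the member with the largest difference between early and late 2-cell embryos, is printed in part. Shown are the 223 bases before its first exon in GENCODE M21 (chr3:93676311-93676533, minus strand), with capitals for the letters TATATAA. The 27 bases of the RefSeq window that lie inside that exon are left out.
Tdpoz1 promoter: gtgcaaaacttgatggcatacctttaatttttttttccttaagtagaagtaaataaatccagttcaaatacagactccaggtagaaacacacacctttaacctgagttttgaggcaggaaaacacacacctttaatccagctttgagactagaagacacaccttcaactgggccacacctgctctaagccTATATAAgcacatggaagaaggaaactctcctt

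These letters begin 33 bases before the start annotated in GENCODE M21 and 60 bases before the RefSeq start. On both strands of the 250 bases before each RefSeq start, TATATAA stood in 3.26% of 27025 promoters, TATAAA in 13.0%, CCAAT in 34.5%, TAATCC in 6.38%, AGGTCA in 13.8% and the Dux-type double homeobox motif in 0.200%. The Tdpoz1, Tdpoz8 and Tdpoz9 windows each held TATATAA and TAATCC. The Tdpoz5 and Tdpoz7 windows, 99.6% identical, held CCAAT alone of the 6, and the Tdpoz4 window held none. A match describes letters only, and for Tdpoz4 and Tdpoz5 the window precedes a start codon rather than a mapped start of transcription.

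Tdpoz5 was the most abundant of the 5 in every column, with 49.5% to 86.5% of their summed FPKM. In late 2-cell controls it was at 87.7 and 74.6 FPKM in libraries A and B. In early 2-cell embryos it was at 7.28 and 4.84. In the other columns it was at 90.5 and 89.5 under late 2-cell FK866, 22.1 and 78.9 under late 2-cell FK866+NMN, 83.3 and 69.3 in the column headed late 2-cell TSA, and 51.7 and 65.7 in the column headed late 2-cell Sirt1. Early 2-cell libraries were the lowest of all, and FK866+NMN library A was the only late library under 50 FPKM.

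In the columns headed 4-cell, Tdpoz5 was at 80.9 and 80.9 FPKM for control, 60.5 for FK866 and 98.6 for FK866+NMN. From the lowest column to the highest it thus went from 6.06 FPKM per library in early 2-cell embryos to 98.6 in the column headed 4-cell FK866+NMN. Late 2-cell control, the column headed 4-cell control and the column headed late 2-cell TSA were neighbours in that order with overlapping libraries.

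Tdpoz1 followed a different order, with late 2-cell controls highest. It was at 42.1 and 26.3 FPKM there (646 and 258 reads), at 15.1 and 30.9 under FK866 and at 9.19 and 26.1 under FK866+NMN. In early 2-cell embryos it was at 3.54 and 0 FPKM (47 and 0 reads). The FK866 libraries overlapped those of the other 2 late 2-cell columns, while both FK866+NMN libraries were below both control libraries (26.1 against 26.3 at the closest). Both early libraries were below all of them.

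In the column headed late 2-cell TSA, Tdpoz1 was at 2.36 and 3.58 FPKM, in the column headed late 2-cell Sirt1 at 8.50 and 3.75, and in the column headed 4-cell control at 9.23 and 3.11. The lone libraries headed FK866 and FK866+NMN at the 4-cell stage were at 15.4 and 30.9. The latter was above every library of the other columns headed TSA, Sirt1 or 4-cell and inside the range of late 2-cell controls.

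Tdpoz4 varied widely between libraries of the same column. It was at 17.6 and 8.41 FPKM in late 2-cell controls, at 6.42 and 44.5 under FK866 and at 0 and 5.54 under FK866+NMN. In early 2-cell embryos it was at 1.59 and 0.774. In the column headed TSA it was at 0.655 and 11.3, in that headed Sirt1 at 7.01 and 3.97, and in those headed 4-cell at 9.19 and 8.32 for control, 15.5 for FK866 and 25.8 for FK866+NMN. FK866 library B had the highest value and FK866+NMN library A, with 0 reads, the lowest.

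Tdpoz2 was low in most libraries and was at 0 reads in 5 of 16. It was at 4.82 and 0 FPKM in late 2-cell controls, at 5.16 and 12.6 under FK866 and at 0 and 0 under FK866+NMN, where 3 reads would be 0.309 and 0.490 FPKM. In early 2-cell embryos it was at 0.619 and 0 (4 and 0 reads). Both FK866 libraries were above both control libraries and both FK866+NMN libraries.

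In the column headed TSA Tdpoz2 was at 5.86 and 0 FPKM, in that headed Sirt1 at 7.68 and 4.41, and in that headed 4-cell control at 5.26 and 7.15. The columns headed FK866 and FK866+NMN at the 4-cell stage were at 0.560 FPKM (3 reads) and 20.4 FPKM (161 reads). The latter was its highest value.

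Tdpoz3 was at 0 reads in 8 of 16 libraries. It was at 30.3 FPKM (156 reads) in the column headed 4-cell FK866 and 14.6 (111 reads) in that headed 4-cell FK866+NMN, and at 10.2 and 1.01 under late 2-cell FK866. In late 2-cell controls it was at 0.140 and 0.656 (1 and 3 reads), in early 2-cell embryos at 3.39 and 0, and under FK866+NMN at 0 and 3.23. Both libraries of the columns headed TSA, Sirt1 and 4-cell control were at 0, where 3 reads would be 0.273 to 0.862 FPKM. Such floors, like the intervals, cover counting error only, since reads of amplified cDNA are not independent molecules.

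**Figure D2:**
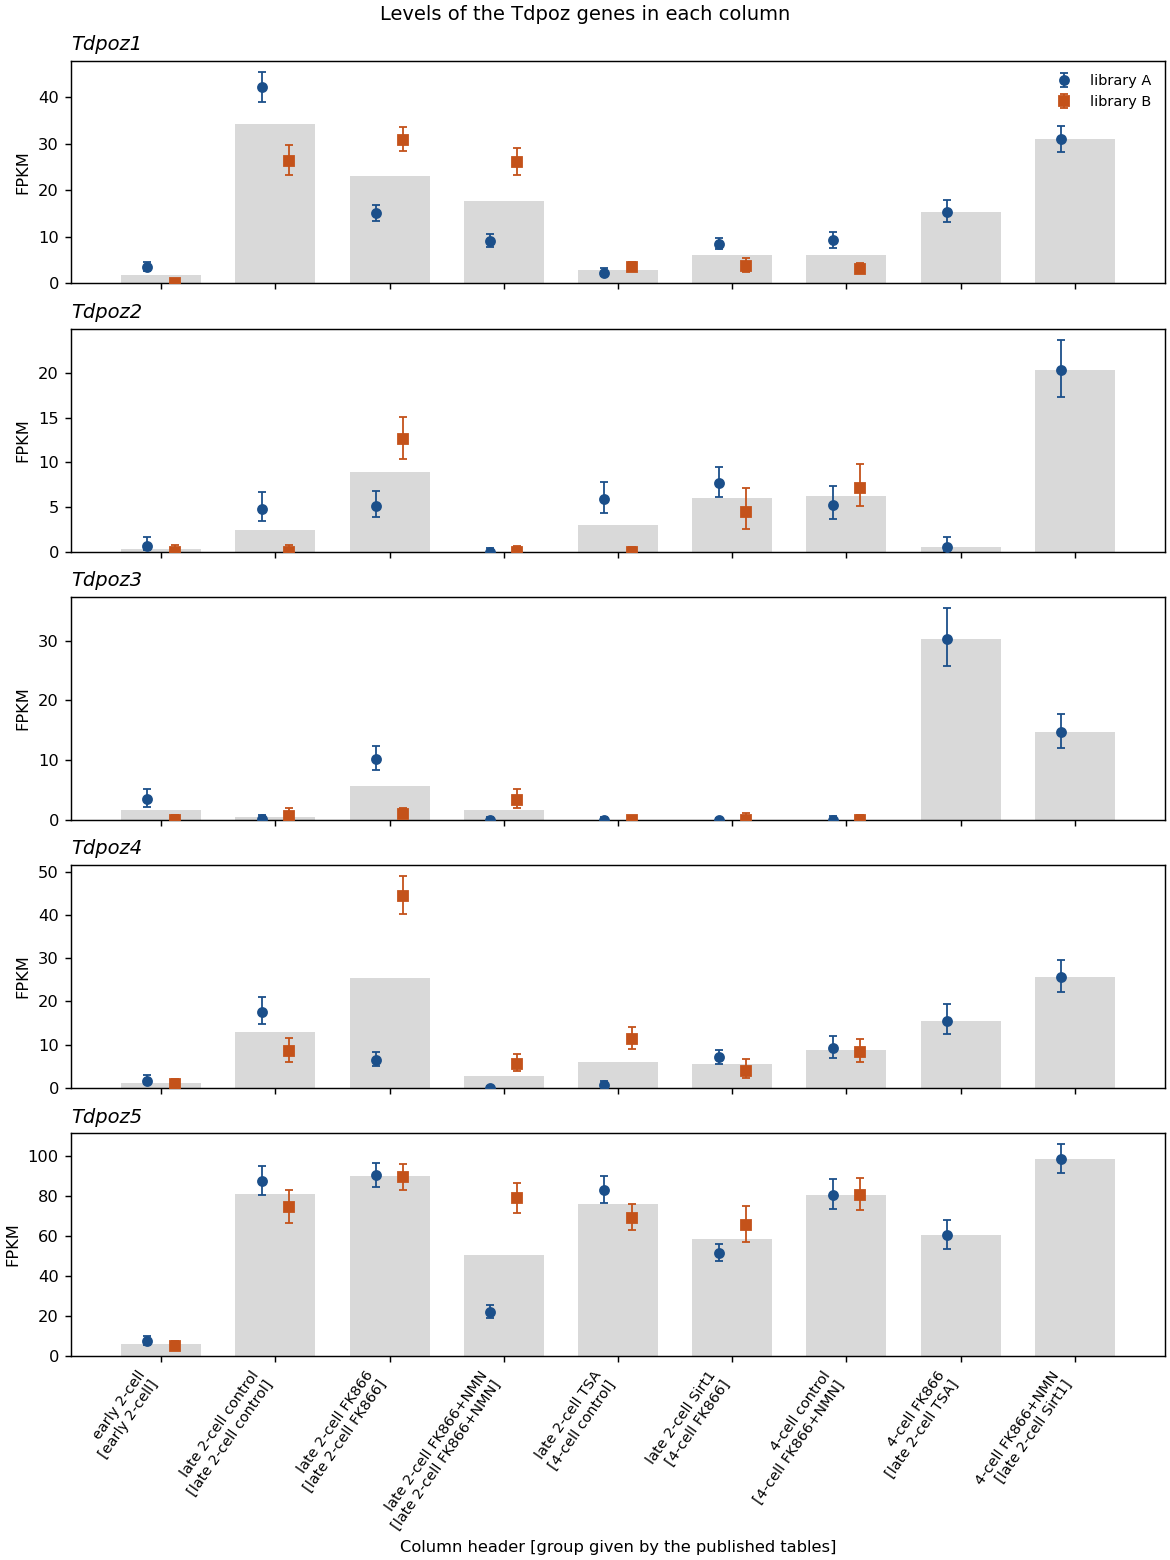
FPKM of the 5 Tdpoz genes by column header, with the group given by the tables in brackets (for early 2-cell, the header itself). Points are separated libraries with exact 95% Poisson intervals (counting error only), and grey bars are the mean of the libraries of a column. Tdpoz5 is at 22.1 FPKM or more in every late 2-cell and 4-cell library, while Tdpoz3 is at 0 reads in 8 of 16 libraries and highest, at 30.3 FPKM, in the column headed 4-cell FK866.

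The summed level of the 5 genes was 11.0 FPKM per library in early 2-cell embryos and 131 in late 2-cell controls. It was 153 under late 2-cell FK866 and 72.5 under FK866+NMN, and from 76.3 to 190 in the columns whose header and tables differ. The libraries of a column were more than 2-fold apart in 13 of 29 pairs for these genes, against 40.0% of pairs over all genes, and in 4 of 4 for the late 2-cell FK866+NMN column, against 68.9%.

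Early and late 2-cell embryos were compared over the main burst of embryonic transcription. The study places it in the mid-to-late 2-cell stage, after a minor phase that begins in the zygote. On log2(FPKM per library + 1), the scale of all differences below, early 2-cell embryos were lower than late 2-cell controls by -3.67 for Tdpoz1, -3.54 for Tdpoz5, -2.68 for Tdpoz4 and -1.38 for Tdpoz2, and differed by 0.95 for Tdpoz3. Thus 4 of the 5 genes were more than 2-fold lower, where 32.2% of the 9514 genes that reached 1 FPKM per library in at least 1 of the columns were. Both early libraries were below both late libraries for Tdpoz1, Tdpoz4 and Tdpoz5, as for 31.0% of genes, and the libraries of Tdpoz2 and Tdpoz3 overlapped.

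Limma, a linear model fitted to log2 values of all 11608 tested genes in the 16 separated libraries, was run as an alternative chosen after the data were seen. It called Tdpoz5 (log2 difference -3.56, SE 0.51, limma adjusted p = 0.00142, n = 2 libraries against 2) and Tdpoz1 (-4.01, SE 0.83, limma adjusted p = 0.0106) lower in early embryos, as it did 7.44% of genes. Tdpoz4 did not pass (-2.63, limma adjusted p = 0.184). The Tdpoz5 call was made in 16 of 16 fits that left out 1 library. That of Tdpoz1 was made in 14 of 16, and its limma adjusted p was 0.0797 without early library B and 0.0696 without control library A. These p-values measure only the spread between these libraries. Of the near copies, Tdpoz9 was lower in early embryos by -6.39 (SE 0.80, limma adjusted p = 0.000713). Of the 100-base stretches of its exons, 82.8% recurred elsewhere in the genome, so its level may include reads of other copies. How many was not tested. Tdpoz7 was lower by -3.50 (SE 0.48, limma adjusted p = 0.00109), which repeats the Tdpoz5 result because reads of the pair cannot be told apart.

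Under FK866 at the late 2-cell stage, Tdpoz3 was higher than in controls by 2.24 and Tdpoz2 by 1.53, and both FK866 libraries were above both control libraries for these genes and for Tdpoz5, whose difference was 0.15. The closest libraries of Tdpoz2 were at 5.16 and 4.82 FPKM, with overlapping 95% counting intervals. Tdpoz4 (0.92) and Tdpoz1 (-0.55) overlapped. So 2 of the 5 were more than 2-fold higher, where 18.1% of genes were, and 0 lower, where 20.0% were. All libraries were above for 3 of the 5, as for 16.6% of genes, and below for 0, as for 20.3%. Limma called none of them, with Tdpoz2 at 1.92 (SE 1.02, limma adjusted p = 0.573) and Tdpoz3 at 1.79 (SE 0.97, limma adjusted p = 0.581), and none had an unadjusted p under 0.05. Over all genes it called 30 higher and 17 lower, and 910 had an unadjusted p under 0.05. For Tdpoz3 the rate of reads was 17.0 times that of controls (95% counting interval 6.47 to 63.7), from 109 reads against 4, of which FK866 library A held 100. Without that library the Tdpoz3 difference was 0.52. The Tdpoz2 difference was 0.85 without FK866 library B and 0.76 without control library B, each within 2-fold.

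Adding NMN to FK866 asks whether the product of NAMPT reverses the effect of its inhibition. With NMN, Tdpoz2 was lower than under FK866 by -3.30, Tdpoz4 by -2.81 and Tdpoz3 by -1.33, while Tdpoz5 (-0.82) and Tdpoz1 (-0.37) were within 2-fold. Thus 3 of the 5 were more than 2-fold lower, where 33.3% of genes were. All NMN libraries were below all FK866 libraries for Tdpoz2, Tdpoz4 and Tdpoz5, as for 25.1% of genes, and above for none of the 5, as for 9.65%. Tdpoz2 was at least 22.2-fold lower, taking 3 reads per library as the floor for the column at 0. The median of all genes was -0.24 here.

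Limma called none of the 5 between FK866+NMN and FK866 (limma adjusted p = 0.163 for Tdpoz2, 0.323 for Tdpoz4 and 0.387 for Tdpoz5), and 2 had an unadjusted p under 0.05. In 1 of 16 fits that left out a library, Tdpoz5 was called, the fit without FK866+NMN library B (limma adjusted p = 0.00574), and its difference ran from -1.98 to -0.19 over these fits. Tdpoz3 went from -1.33 to 0.38 without FK866 library A and to -0.64 without FK866+NMN library A, and Tdpoz4 from -2.81 to -0.98 without FK866 library B. Against controls, FK866+NMN embryos were lower by -1.89 for Tdpoz4 and -1.77 for Tdpoz2, and by -0.92 for Tdpoz1, -0.67 for Tdpoz5 and higher by 0.90 for Tdpoz3. More than 2-fold lower were 2 of the 5 here, where 36.2% of genes were, and 0 higher, where 21.0% were. Limma called none of the 5 and gave none an unadjusted p under 0.05, although Tdpoz5 was called without FK866+NMN library B (limma adjusted p = 0.00736).

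The step from late 2-cell to 4-cell controls depends on which column holds the 4-cell controls. By header, the 4-cell control column was lower by -2.30 for Tdpoz1 and higher by 1.08 for Tdpoz2. Tdpoz4 differed by -0.52 and Tdpoz5 by -0.01. Of the 4 genes with at least 1 FPKM, 1 was more than 2-fold higher, where 24.2% of genes were, and 1 lower, where 33.8% were. The Tdpoz2 difference was 0.88 without 4-cell control library B and 0.31 without late 2-cell control library B. Limma called none of the 5, and 1 had an unadjusted p under 0.05.

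By the tables, 4-cell controls were lower than late 2-cell controls by -3.15 for Tdpoz1 and -1.01 for Tdpoz4. The differences were 0.20 for Tdpoz2 and -0.09 for Tdpoz5. So 2 of 4 were more than 2-fold lower, where 41.3% of genes were, and the median of all genes was -0.44. Limma called Tdpoz1 (-3.13, SE 0.83, limma adjusted p = 0.0436, n = 2 libraries against 2), in 6 of 16 fits that left out 1 library, with a limma adjusted p of up to 0.198 without library A of the 4-cell controls. The 10 fits without the call left out a library of late 2-cell control or FK866 embryos or of the columns headed TSA, Sirt1 and 4-cell control. Over all 11608 tested genes limma called 753 lower and 398 higher, and it did not call Tdpoz5 (-0.09, SE 0.51). Tdpoz1 was thus below its late 2-cell level in both readings and Tdpoz5 had the same level within the spread of libraries in both, although centring on the median of all genes turned the Tdpoz5 difference to 0.35 by the tables and 0.20 by header.

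TSA was compared with late 2-cell controls as an inhibitor of deacetylases. By header, Tdpoz1 was lower by -3.15 and Tdpoz4 by -1.01, from the same columns as 4-cell controls by the tables. The Tdpoz4 difference was -0.19 without library A of the column headed TSA and -0.43 without control library A. By the tables, Tdpoz3 was higher by 4.49, with 156 reads against 4 and a rate 89.0 times that of controls (95% counting interval 34.1 to 331). Tdpoz1 (-1.10) and Tdpoz2 (-1.13) were lower, Tdpoz4 (0.24) and Tdpoz5 (-0.42) within 2-fold. More than 2-fold higher was 1 of 5, where 30.1% of genes were, and lower 2 of 5, where 29.7% were. The library was above both control libraries for Tdpoz3, 1 of the 5, as for 43.6% of genes. It was below both for Tdpoz1 and Tdpoz5, 2 of the 5, as for 31.1%. Tdpoz2, at 0.560 FPKM from 3 reads, lay between the control libraries at 4.82 and 0. By the tables limma called Tdpoz3 (4.51, SE 1.19, limma adjusted p = 0.0459, n = 1 library against 2), in 5 of 15 fits that left out a library and with a limma adjusted p of up to 0.147 without control library A. The 10 fits without the call left out an early 2-cell or late 2-cell control library or one of the columns headed TSA, Sirt1 and 4-cell control. Over all 11608 tested genes limma called 700 higher and 292 lower in this reading. The lone library is assumed to vary like those of the other groups. Cyp19a1 had its highest level in this same library, and its part in the result was not tested.

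Sirt1 knockdown was read in the same way. By header, Tdpoz1 was lower than in late 2-cell controls by -2.30, Tdpoz4 by -1.11 and Tdpoz5 by -0.46, and Tdpoz2 was higher by 1.05. Of 4 genes 1 was more than 2-fold higher, where 24.3% of genes were, and 2 lower, where 36.6% were. Among these 4, both libraries were below both control libraries for Tdpoz1, Tdpoz4 and Tdpoz5, as for 30.2% of genes. Tdpoz3, at 0 reads against 1 and 3 in controls, did not reach 1 FPKM and is not counted. The Tdpoz2 difference was 0.67 without library A of the column headed Sirt1 and 0.28 without control library B, and that of Tdpoz4 -0.81 without library B of the former and -0.54 without control library A. By the tables, Tdpoz3 was higher by 3.48 and Tdpoz2 by 2.65, with Tdpoz4 at 0.93, Tdpoz5 at 0.28 and Tdpoz1 at -0.14. More than 2-fold higher were 2 of 5, where 16.4% of genes were, and in 4 of 5 the library was above both control libraries, where 32.5% of genes were. For Tdpoz3 the rate of reads was 42.9 times that of controls (95% counting interval 16.3 to 160). Limma called none of the 5 in either reading; by the tables Tdpoz3 had a limma adjusted p of 0.329 and Tdpoz2 of 0.462, and 2 had an unadjusted p under 0.05.

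FK866 at the 4-cell stage was compared with 4-cell controls in both readings. By header, Tdpoz3 was higher than in 4-cell controls by 4.97, at least 55.8-fold, and Tdpoz1 by 1.20, or 0.68 without library B of the controls. Tdpoz2 was lower by -2.21, with a control rate 11.0 times that under FK866 (95% counting interval 3.60 to 54.4). Tdpoz4 differed by 0.76 and Tdpoz5 by -0.41. More than 2-fold higher were 2 of 5, where 41.8% of genes were, and lower 1 of 5, where 32.9% were. The library was above both control libraries for Tdpoz1, Tdpoz3 and Tdpoz4, 3 of the 5, as for 51.4% of genes. Over all 11608 tested genes limma called 1412 higher and 838 lower here. Limma called Tdpoz3 (4.97, SE 1.19, limma adjusted p = 0.0175, n = 1 library against 2) in 13 of 15 fits that left out a library, with limma adjusted p of 0.0675 and 0.0741 without the one or the other library headed 4-cell control.

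By the tables no Tdpoz gene was more than 2-fold apart between FK866 and control 4-cell embryos, where 21.2% of genes were higher and 13.4% lower. Tdpoz1 was at 0.84, Tdpoz2 at 0.84, Tdpoz4 at -0.10 and Tdpoz5 at -0.37. Tdpoz3 was at 0 reads in all 4 libraries. Limma called none of the 5, and over all genes 0 higher and 1 lower, with 626 at an unadjusted p under 0.05.

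FK866+NMN against FK866 at the 4-cell stage compared 1 library with 1 by header. There Tdpoz2 was higher by 3.78, with 161 reads against 3 and a rate 36.4 times that under FK866 (95% counting interval 12.2 to 178). Tdpoz3 was lower, just past 2-fold (111 reads against 156), and Tdpoz1 (0.96), Tdpoz5 (0.70) and Tdpoz4 (0.69) were within 2-fold. More than 2-fold higher was 1 of 5, where 25.0% of genes were, and lower 1 of 5, where 34.7% were. By the tables none of 4 was more than 2-fold apart, where 14.8% of genes were higher and 11.5% lower, with Tdpoz4 at 0.59 and Tdpoz5 at 0.46 as the largest differences. Limma, which takes the spread of lone libraries from the other groups, called none of the 5 in either reading.

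**Figure D3:**
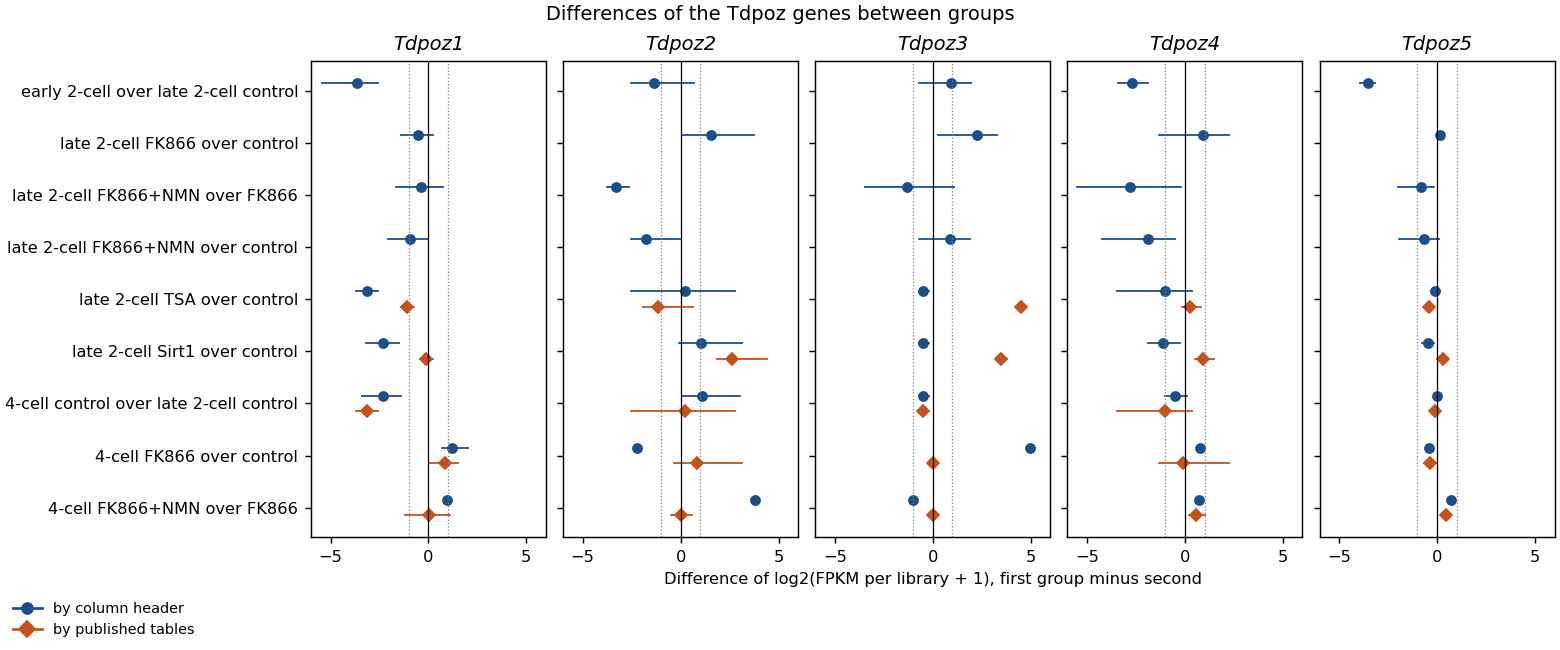
Differences on log2(FPKM per library + 1), first group minus second, of the 5 Tdpoz genes in 9 comparisons, read by header (circles) and by the tables (diamonds); bars span the lowest and highest pair of libraries and dotted lines mark a 2-fold difference. Tdpoz1 and Tdpoz5 lie at -3.67 and -3.54 for early over late 2-cell embryos, and Tdpoz3 at 4.97 by header and at 0 by the tables for 4-cell FK866 over control.

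The neighbourhood was examined next. Within 500 kb of the 5 genes the annotation has 79 genes, 39 of them pseudogenes, and 37 have a row, 32 of them other than the 5. In early over late 2-cell embryos 11 of 23 expressed neighbours were more than 2-fold lower, against 32.2% of all genes, and 7 higher, against 31.7%, with a median of -0.92, where the median of all genes was 0.00. Over all 11608 tested genes limma called 864 lower and 810 higher. Of 28 tested neighbours it called 3 lower, Tdpoz9, Tdpoz7 and Spopfm2, and 1 higher, the pseudogene Gm36953 (2.38, SE 0.42, limma adjusted p = 0.0044). Tdpoz7, counted among these neighbours, shares its reads with Tdpoz5 and is not a separate result. Spopfm2, a relative of the speckle-type POZ gene Spop, was at 12.7 FPKM in early and 116 in late 2-cell embryos (log2 difference -3.14, SE 0.73, limma adjusted p = 0.0181).

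From late 2-cell to 4-cell controls by header limma called 1 of 28 neighbours lower and 0 higher, the pseudogene Gm9113 (-3.55, SE 0.81, limma adjusted p = 0.0349). Over all 11608 tested genes it called 409 lower and 267 higher. By the tables it called 3 of the neighbours lower and 0 higher, against 753 and 398 of all genes. The 3 were Gm9124, a pseudogene (-3.30, limma adjusted p = 0.00831), Spopfm3 (-3.27, limma adjusted p = 0.00972) and Spopfm2 (-2.80, limma adjusted p = 0.0399). By header these values belong to TSA over control. Under late 2-cell FK866 8 of 22 expressed neighbours were more than 2-fold higher, against 18.1% of all genes, and 1 lower, against 20.0%, and limma called 0 of them. By the tables, TSA embryos had 11 of 24 expressed neighbours more than 2-fold higher, against 30.1% of all genes, and 0 lower, against 29.7%. There limma called 3 of 28 higher, Gm5773, Gm4982 and 1700040D17Rik, against 700 of all 11608 tested genes. In that same column, headed 4-cell FK866, Spopfm2 was at 212 FPKM, Spopfm3 at 272 and the pseudogene Gm5542 at 118, the highest of their 9 columns, as for Tdpoz3.

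**Figure D4:**
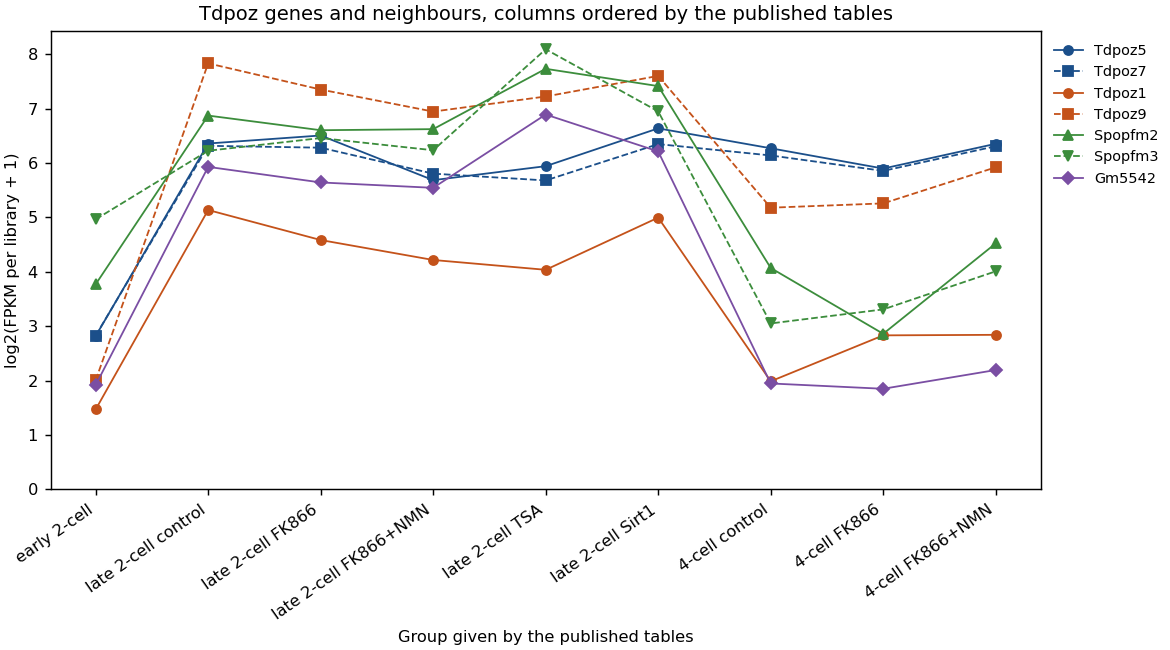
Log2(FPKM per library + 1) of Tdpoz1, Tdpoz5, their copies Tdpoz9 and Tdpoz7 and the neighbours Spopfm2, Spopfm3 and Gm5542. The 9 columns are placed in the groups that the tables give, and early 2-cell by its header. Read this way the genes plotted other than Tdpoz5 and Tdpoz7 are lower in the 3 4-cell groups than in the 5 late 2-cell groups, while Tdpoz5 stays between 50.5 and 98.6 FPKM per library in all 8. The plotted neighbours are a choice from 32 and do not stand for all. Mrpl9, not plotted, was at 42.6 to 50.5 FPKM in these 4-cell groups and 12.2 to 28.3 in these late 2-cell groups.

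The other genes of the 2-cell program were lower in early than in late 2-cell embryos in 13 of 19 expressed members and higher in 2, by more than 2-fold (32.2% and 31.7% of all genes), with a median of -1.48. Limma called 5 of 18 lower and 0 higher, against 864 and 810 of all 11608 tested genes. The 5 were Zscan5b (-6.09, SE 0.54, limma adjusted p = 0.000126), the homeobox genes Obox6, Obox3 and Crxos, and Ubtfl1. Under late 2-cell FK866 1 was higher and 1 lower of 19 (18.1% and 20.0% of all genes), with a median of -0.11, and limma called 0. From late 2-cell to 4-cell controls by header, 13 of 18 were lower and 1 higher (33.8% and 24.2% of all genes), with a median of -2.62. Here limma called 7 lower and 0 higher, against 409 and 267 of all tested genes, and 6 of the 7 were the zinc finger genes Zscan4a to Zscan4f. As the tables have them, 13 of 18 were lower and 2 higher (41.3% and 23.2% of all genes), with a median of -2.92. In that reading limma called 9 lower and 0 higher, the same 6 genes among them, against 753 and 398 of all tested genes. The median of the Tdpoz genes was -0.26 by header and -0.55 by the tables. Among genes of the CUL3 ligase, limma called 1 of 6 in early over late embryos, Cul3 itself, the scaffold of the ligase, lower in early embryos (-3.10, SE 0.67, limma adjusted p = 0.0123), and 0 under late 2-cell FK866.

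The genes whose levels over the 9 columns were most like the mean pattern of the Tdpoz genes, among 5901 with at least 10 FPKM in a column, were Gm21847 (Pearson's r 0.948), Aste1 (0.930), Gm33248 (0.926), Ccdc32 (0.922) and Csnk1g2 (0.911). Of these 5, 3 were also among the closest 5 by Spearman's rho. The 9 columns share stages and libraries' depth, so these values are a description. Between the Tdpoz genes themselves r ran from 0.042 for Tdpoz2 and Tdpoz3 to 0.776 for Tdpoz4 and Tdpoz5.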

How the data were processed

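RNA-seq of 18 of the 42 samples was used; the others, CUT&Tag of H3K27ac, were left out. The authors used FastQC and Trim Galore on the reads, HISAT2 for alignment to mm10, featureCounts for counting and DESeq2 for tests, and deposited FPKM, 1 column per group. Per the submitters' notes, bases were called with CASAVA 1.4.

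FPKM multiplied by GENCODE M21 exon length gave whole reads, within 3 times the rounding of the deposited value (at most 7.16e-05 reads), for 97.6% to 97.9% of values in each column, for 15545 genes with a length, of which 14937 were separated into libraries in all columns. On simulated data of 13166 values 99.6% were separated, 100% of them rightly. Sums of 2 libraries were divided by 2. Differences are log2(FPKM per library + 1), for genes that reach 1 FPKM per library in at least 1 of the columns, called past 2-fold. Since the file holds FPKM and no replicate columns, the planned result is a description with no test. Limma (trend, empirical Bayes, 7 residual degrees of freedom, Benjamini-Hochberg adjustment over 11608 genes, called under 0.05) on separated libraries was added after the data were seen. In its simulation of late 2-cell FK866 over control it recovered 0, 7, 13 and 30 of 50 genes changed by log2 1, 2, 3 and 4, with 0 false calls. The changed genes had a mean log2(FPKM + 1) above 3, and noise was independent between libraries. The simulation thus does not cover changes in genes as low as Tdpoz2 and Tdpoz3, or comparisons with a lone library.

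Named genes were the 5 Tdpoz genes, genes within 500 kb, Spop relatives and CUL3 ligase genes, genes of the 2-cell program and the 5 genes most like the Tdpoz mean. The members and lists were chosen with earlier results of these data known. Spop and Tmem92 have no row among those used here. The settings varied were the pseudocount (0.1 and 5), the minimum (5 FPKM or none), values as deposited, centring on the median, each library left out in turn, and the reading by the tables. Nothing in the labels says that the 2 samples of a group came from separate collections. The tools were R 4.3.3 with limma 3.58.1, and Python 3.11.15 with biopython 1.88, matplotlib 3.10.9, scipy 1.17.1, pandas 2.3.3 and numpy 2.4.6.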

Additional observations from a re-analysis of the deposited data

Results flagged for a closer look

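For some Tdpoz genes the difference between treated and control embryos, or with and without NMN, had opposite signs at the late 2-cell and 4-cell stages in every pair of libraries. The difference between the stages, 4-cell effect minus late 2-cell effect on log2(FPKM + 1), was tested in the limma fit over 11608 genes.

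For FK866 over control by header it was -4.12 for Tdpoz2 (SE 1.61, limma adjusted p = 0.155) and -0.56 for Tdpoz5 (limma adjusted p = 0.742). For Tdpoz5 by the tables it was -0.53 (limma adjusted p = 0.922).

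For FK866+NMN over FK866 by header it was 6.97 for Tdpoz2 (SE 1.76, limma adjusted p = 0.0489), which passed, and 4 of 14 fits that left out a library called it, with a limma adjusted p of up to 0.111 without late 2-cell FK866 library B; the 4 left out a library of late 2-cell controls or of the column headed TSA. It rests on 1 library each of FK866 and FK866+NMN at the 4-cell stage. Over all 11608 genes the same difference was called higher for 323 and lower for 373. For Tdpoz4 it was 3.54 (limma adjusted p = 0.404) and for Tdpoz5 1.78 (limma adjusted p = 0.311). By the tables the Tdpoz2 difference was 3.25 (SE 1.44, limma adjusted p = 0.507) and its signs were not opposite in every pair of libraries. By the tables it was 3.47 for Tdpoz4 (limma adjusted p = 0.560) and 1.55 for Tdpoz5 (limma adjusted p = 0.534). Without late 2-cell FK866+NMN library B, Tdpoz5 passed in both readings (limma adjusted p = 0.00833 by header and 0.0120 by the tables).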

How the results depend on the processing

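No paired analysis was possible because the deposited columns carry no replicate number. The values here are medians of the log2 differences of the Tdpoz genes that reached the minimum level. For early over late 2-cell embryos the median of -2.68 was -3.35 with a pseudocount of 0.1, -1.54 with 5, and -3.54 with a minimum of 5 FPKM. For late 2-cell FK866 over control 0.92 became 0.47 in the limma fit. For Sirt1 over control -0.79 by header became 0.93 by the tables. For 4-cell FK866 over control 0.76 became 0.58 with a pseudocount of 5, 0.34 when centred, -0.16 with values as deposited (which sets sums of 2 libraries against 1) and 0.37 by the tables. For 4-cell FK866+NMN over FK866 0.70 became 0.99 when centred and 0.24 by the tables. Leaving out 1 library moved the median from -3.40 to -2.43 for early over late 2-cell embryos, from 0.16 to 1.49 for FK866, from -2.72 to -0.64 for FK866+NMN over FK866 and from -1.52 to -0.20 for TSA by header. For single genes, Tdpoz3 under FK866+NMN over FK866 turned to 0.38 without FK866 library A, and by the tables Tdpoz4 turned to 0.24 for TSA and 0.93 for Sirt1, and Tdpoz2 to 0.84 for 4-cell FK866. The cause of these changes was not tested. Of the other values, 55 medians under planned or added settings, 23 with a library left out and 2 by the tables were counted as unmoved. The yardstick was the spread between libraries, or the counting interval of 1 gene where 1 library was set against 1. Some settings, such as a changed minimum that kept the same genes, could not move the median. Tdpoz2 and Tdpoz3 had 0 reads in 5 and 8 of 16 libraries, and a level under that of 3 reads was not detectable at this depth.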

Other observations

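The rows starting with Tdpoz number 10, the 5 described above among them. Tdpoz9, the near copy of Tdpoz1, was at 3.02 FPKM per library in early 2-cell embryos and at 227 in late 2-cell controls, the highest of its 9 columns, then at 162 under FK866 and 122 under FK866+NMN. In the columns headed late 2-cell TSA, late 2-cell Sirt1 and 4-cell control it was at 35.3, 37.3 and 59.7, and in those headed 4-cell FK866 and 4-cell FK866+NMN at 149 and 193. Tdpoz7, the copy of Tdpoz5, was at 6.10 FPKM per library in early 2-cell embryos and between 50.3 and 80.5 in the other 8 columns. The row Tdpoz9-ps1 was at 2.14 in early 2-cell embryos and 194 in late 2-cell controls, close to Tdpoz9. Tdpoz6 was at 2.30 and 23.9 in these columns and highest, at 56.6, in the column headed late 2-cell TSA, where Tdpoz1 and Tdpoz9 were low. Tdpoz8 was at 0.556 and 8.02 in early and control late embryos and highest, at 16.7, in the column headed 4-cell FK866.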
